A study of Saccharomyces cerevisiae with 56 samples.

Results

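Yeast cells that ferment grape must remove superoxide, hydrogen peroxide and organic peroxides with catalases, superoxide dismutases and thiol peroxidases. The thiol enzymes draw their electrons from thioredoxin and glutathione, which are in turn kept reduced by NADPH, and glutaredoxins repair proteins that carry glutathione on a cysteine. Much of this defence is transcribed under the control of Yap1, a basic leucine zipper factor that is held in the nucleus when its cysteines are oxidised, often together with Skn7. The 34 oxidative stress defence genes described here were chosen by name as the catalase, superoxide dismutase, thioredoxin, glutaredoxin, peroxiredoxin and glutathione genes and their regulators. All 34 were found on the array, among 5197 genes named on its 6245 probes, each with 1 probe.

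Transcript levels were measured in the parents of a cross and in 44 of their haploid progeny. 59A is a haploid, mating type a, ho derivative of EC1118, a commercial wine yeast. S288C, of mating type alpha, is the laboratory strain whose genome serves as reference. Each parent gave 2 RNA extracts, labelled as biological replicates, with 3 technical arrays of each extract, whereas each segregant gave 1 array. All cultures, parents included, grew in the synthetic must SM425 with 425 mg/L of nitrogen at pH 3.3, supplemented with para-aminobenzoic acid and iron chloride, and were sampled at 66 g/L of released CO2, which is 70% of the fermentation. The fermenters had airlocks to keep oxygen out, and the medium held reduced amounts of ergosterol and oleic acid. At sampling the cells were in stationary phase. The segregants are first-generation spores, some of them sisters from the same ascus, and were treated as separate samples.

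The values are log2 intensities of a one-colour array after quantile normalization, on which a difference of 1 is a doubling. The authors give 5.3 as background and 16 as saturation, and 6.3, which is 1 above background, was used as the limit for a measured level. All 34 genes lay above this limit in both parents. GPX1 was the only one below it on any array, in the segregants 19c (5.68) and 20a (5.77), so its level there is not well above background. AHP1 reached 15.97, close to saturation, and differences among its highest values may be compressed. Arrays of the same extract correlated at 0.994 or more over all probes while those of 59A against S288C gave at most 0.891, correlations that run across genes. The mating genes matched the labels, with MFA2, which encodes a-factor, at a mean of 11.45 in 59A and 5.46 in S288C, and MATALPHA1 at 6.55 and 8.12.

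The segregants 19c and 20a stood apart in many genes, and many of the slopes, spreads and pairs below are therefore also given without them. Over all probes, 19c lay below the range of the other 42 segregants in 13.1% of cases and above it in 14.4%, and 20a in 12.4% and 9.41%. Both were hybridised on slide 5, together with 20b, 21c, 22a and 22b. Slide membership was inferred from the prefix of each array's title, and the slides were numbered here in the order of the arrays. Whether the array, the culture or the genotype sets 19c and 20a apart was not tested.

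Levels spanned a wide range. Median segregant levels ran from 7.03 for DOT5, a nuclear peroxiredoxin, to 15.54 for AHP1, a cytosolic peroxiredoxin that acts on alkyl hydroperoxides. Intensities of different probes are not comparable as amounts of RNA, so the comparisons that follow are between strains for the same gene.

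**Figure D1:**
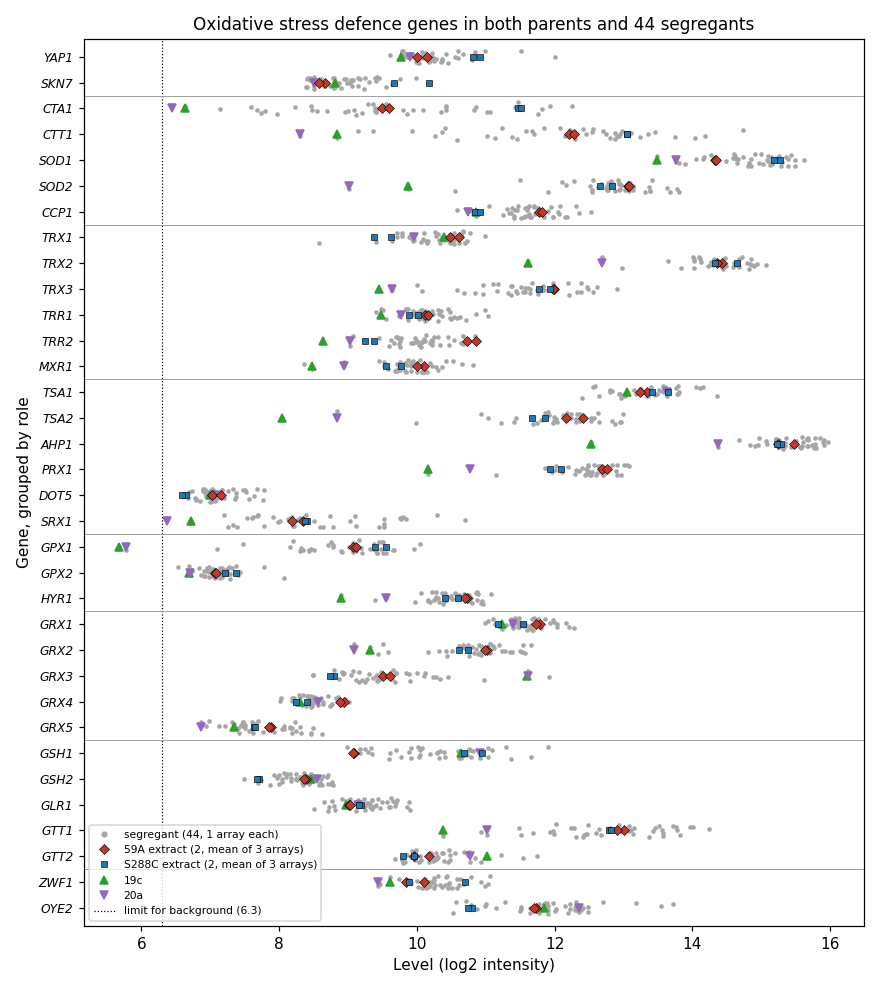
Level of the 34 genes (log2 intensity, horizontal axis) in each RNA extract of 59A (diamonds) and S288C (squares), each the mean of 3 arrays, and in 44 segregants (grey points, 1 array each), with 19c and 20a marked by triangles. Lines separate the roles. CTT1 and CTA1 are spread most widely, and 19c or 20a is the lowest point in 17 genes.

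The first comparison asked which defence genes differed between the parents late in fermentation. 12 of the 34 genes passed the test, 6 higher and 6 lower in 59A, where 25.3% of all probes passed, 12.9% higher and 12.4% lower. A call required an adjusted p under 0.01 in limma with a log2 difference above 0.7 in size, 2 extracts against 2. The genes lower in 59A were both regulators, both catalases, the cytosolic superoxide dismutase and the first enzyme of glutathione synthesis. Those higher in 59A were 3 mitochondrial enzymes, TRR2, CCP1 and PRX1, together with TRX1, GRX3 and OYE2. The median difference (59A minus S288C) was 0.18 over the 34 genes and -0.0043 over all probes. 24 of the 34 genes had no overlap between the 6 arrays of 59A and the 6 of S288C, against 62.8% of all probes.

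Both regulators were lower in 59A. YAP1, which encodes an activator of many of these genes but not of all, stood at 10.01 and 10.15 in the extracts of 59A and at 10.82 and 10.92 in those of S288C. SKN7, a response regulator that binds many of the same promoters, was at 8.67 and 8.57 in 59A and at 9.66 and 10.17 in S288C, the 2 extracts of S288C lying further apart than those of most other members. The extracts of the parents did not overlap in either gene. The difference was -0.79 for YAP1 (SE 0.09, adjusted p = 0.00084) and -1.30 for SKN7 (SE 0.17, adjusted p = 0.0017), that is 1.73-fold and 2.46-fold lower in 59A.

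The enzymes that act directly on superoxide and hydrogen peroxide moved in both directions. CTA1, the catalase of peroxisomes and mitochondria, was at 9.49 and 9.60 in 59A and at 11.46 and 11.51 in S288C, a difference of -1.94 (SE 0.07, adjusted p = 4.1e-05). CTT1, the cytosolic catalase, was at 12.21 and 12.29 against 13.06 and 13.05, a difference of -0.81 (SE 0.07, adjusted p = 0.00039). SOD1, the copper and zinc superoxide dismutase of the cytosol, was at 14.33 and 14.34 against 15.27 and 15.19, a difference of -0.89 (SE 0.07, adjusted p = 0.00029). All 3 were thus lower in every extract of 59A. CCP1, the cytochrome c peroxidase of the mitochondrial intermembrane space, lay the other way, at 11.78 and 11.82 in 59A and 10.84 and 10.92 in S288C (difference 0.92, SE 0.07, adjusted p = 0.00027). SOD2, the manganese dismutase of the mitochondrial matrix, was at 13.07 and 13.08 against 12.66 and 12.83 and did not pass.

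In the thioredoxin system the parents differed in 1 gene of each compartment. TRX1, a cytosolic thioredoxin, was at 10.48 and 10.61 in 59A and at 9.62 and 9.38 in S288C (difference 1.04, SE 0.11, adjusted p = 0.00069). Its paralog TRX2 overlapped between the parents, at 14.44 and 14.37 against 14.65 and 14.34. TRR2, the mitochondrial thioredoxin reductase, was at 10.73 and 10.85 against 9.25 and 9.37 (difference 1.48, SE 0.08, adjusted p = 0.00011), the largest rise in 59A among the 34 genes. The cytosolic reductase TRR1, by contrast, was at 10.12 and 10.16 against 10.02 and 9.89. The mitochondrial thioredoxin TRX3 and the methionine sulfoxide reductase MXR1 did not pass either, with differences of 0.12 and 0.39.

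Among the 5 peroxiredoxin genes and the sulfiredoxin gene SRX1, PRX1 alone was called, and narrowly. PRX1, the peroxiredoxin of mitochondria, was at 12.69 and 12.77 in 59A and at 12.09 and 11.93 in S288C, without overlap (difference 0.72, SE 0.09, adjusted p = 0.0012). It was no longer called without the second extract of 59A (0.68, adjusted p = 0.010) or without the second extract of S288C, where the difference was 0.64. TSA1, the most studied cytosolic peroxiredoxin, and its paralog TSA2 had differences of -0.24 and 0.53, AHP1 of 0.09, DOT5 of 0.47 and SRX1, whose product repairs overoxidised peroxiredoxins, of -0.13. None of the 3 glutathione peroxidase genes was called, with -0.38 for GPX1, -0.21 for GPX2 and 0.21 for HYR1, whose product also relays peroxide to Yap1.

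Glutathione synthesis differed in opposite directions at its 2 steps. GSH1, which encodes the gamma-glutamylcysteine synthetase that limits the rate of the pathway, was at 9.09 and 9.07 in 59A and at 10.68 and 10.94 in S288C (difference -1.73, SE 0.10, adjusted p = 0.00012), 3.32-fold lower. GSH2, the glutathione synthetase of the second step, was at 8.39 and 8.36 against 7.71 and 7.67, higher in both extracts of 59A but just under the required size (difference 0.69, SE 0.07, adjusted p = 0.00058). It passed with slide as a block (0.73) or without the first extract of S288C (0.70). The glutathione reductase GLR1 and the transferases GTT1 and GTT2 had differences of -0.15, 0.15 and 0.19 and were not called.

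GRX3 was the only glutaredoxin called. This monothiol glutaredoxin, which takes part in iron regulation, was at 9.50 and 9.60 in 59A and at 8.79 and 8.74 in S288C (difference 0.78, SE 0.07, adjusted p = 0.00053). Its paralog GRX4 shifted the same way by 0.58 and stayed below the required size. OYE2, an NADPH oxidoreductase of the old yellow enzyme family, was at 11.72 and 11.71 against 10.80 and 10.75 (difference 0.94, SE 0.07, adjusted p = 0.00022). ZWF1, which encodes the glucose-6-phosphate dehydrogenase that feeds NADPH into the system, was at 9.85 and 10.10 in 59A but at 9.88 and 10.69 in S288C, so that the extracts of 1 strain differed more than the strains did. Without the first extract of S288C it was called as lower in 59A (-0.72). Slides 1, 2 and 5 held arrays of both parents, and within each of them all 12 called genes kept their direction. The smallest difference was the 0.57 of PRX1 on slide 1. Slides 1 and 2 held the first extract of each parent and slide 5 the second, and these arrays also entered the calls.

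**Figure D2:**
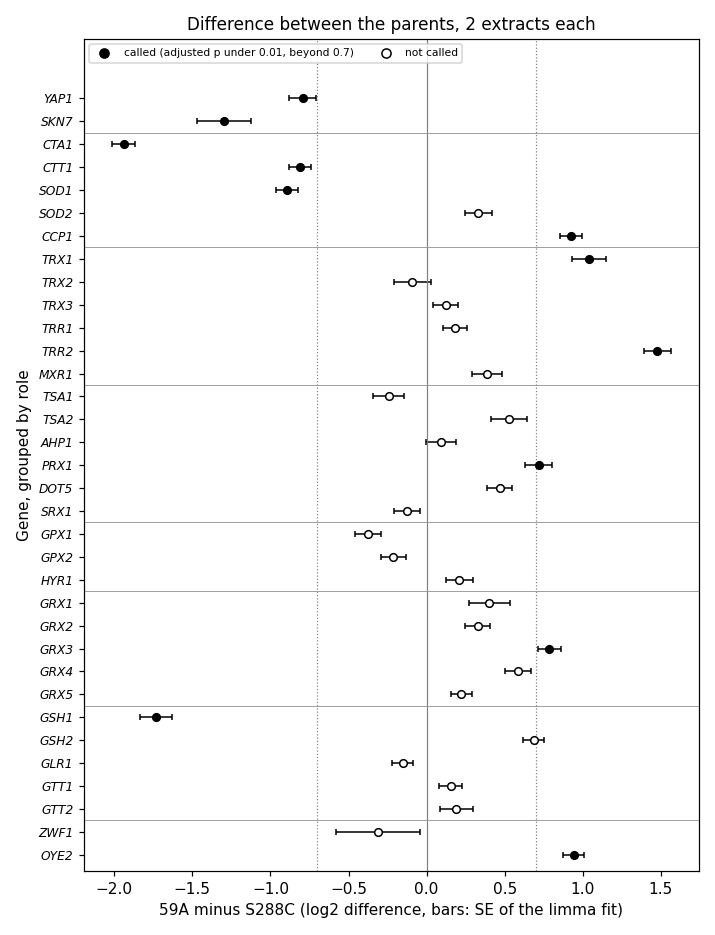
Difference between the parents for the 34 genes (59A minus S288C, log2, horizontal axis), with bars for the SE of the limma fit and filled points for the 12 genes called. Dotted lines mark the required size of 0.7 each way. CTA1 (-1.94) and GSH1 (-1.73) lie farthest to the left and TRR2 (1.48) farthest to the right.

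The second comparison asked whether the mean of the segregants lay midway between the parents, the place given by effects that add up. None of the 34 genes was called in limma at an adjusted p under 0.01, where 0.145% of all probes were, and 0 members had an unadjusted p under 0.05. CTA1 had the largest departure, with a segregant mean of 9.49, at -1.02 from the midpoint (SE 0.72, adjusted p = 0.997). OYE2 departed by 0.65, CTT1 by -0.68 and GRX3 by 0.49. The count stayed at 0 without 19c and 20a. This fit gives the parental extracts the spread of the segregants, which differ in genotype, and the count of 0 therefore does not show that the means lay at the midpoint. With each group's own spread, a description without a test that was added after the data were seen, the SE was 0.22 for CTA1 and 0.11 for OYE2. 15 of the 34 genes then departed by more than 2 SE, 9 above and 6 below, where 39.4% of all probes did. Without 19c and 20a the count was 18, against 35.1%.

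The defence genes varied more among the segregants than the array as a whole. The median SD over 44 segregants was 0.46 for the 34 genes and 0.35 for all probes, 0.44 and 0.34 without 19c and 20a, and 0.45 and 0.35 around slide means. These are descriptions, without a test. All 34 genes lay above the background limit in both parents, while 15.0% of probes lay below it on the median array. Dim probes were not left out of the reference here, nor for the variance shares and the counts beyond both parents below. The members and all probes are therefore unlike in level. The widest was CTT1, with 8.31 in the lowest segregant, a median of 12.30 and 14.73 in the highest (SD 1.45). CTA1 ran from 6.44 over 9.40 to 12.26 (SD 1.44), and the sulfiredoxin SRX1 from 6.37 over 8.21 to 10.69 (SD 1.00). In all 3 the segregants extended well below and above both parents.

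For other genes the spread came largely from 19c and 20a. TSA2 ran from 8.04 over 12.22 to 12.99, with an SD of 0.97 that became 0.60 without these segregants. SOD2 ran from 9.01 over 12.90 to 13.81, and its SD of 0.93 became 0.60. The peroxidase gene GPX1 ran from 5.68 over 9.08 to 10.05, with an SD of 0.92 and 0.62. At the other end GRX4 varied least, between 8.01 and 9.01 (SD 0.24).

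The variance over segregants exceeded that of single arrays of a parent by far. The share of variance above this array error had a median of 96.3% over the 34 genes and 92.4% over all probes, and was above 80% in 31 genes, against 79.7% of all probes. ZWF1 had the lowest share, 11.8%, since its parental arrays differed nearly as much as the segregants did. SKN7 and GRX1, a dithiol glutaredoxin, followed with 73.8% and 73.0%. The array error was taken over the 6 arrays of a parent and so includes the difference between its 2 extracts. For ZWF1 and SKN7 the S288C extracts lay far apart, at 9.88 and 10.69 and at 9.66 and 10.17.

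Segregants beyond both parents were frequent. A segregant was counted when it lay more than 2 SD of single arrays outside both parental means, which held for a median of 15.5 segregants per defence gene and 10 per probe over the whole array, 14 and 9 without 19c and 20a. TRX3, whose parental means were 11.98 and 11.86, had 36 segregants outside them, 10 above and 26 below. The transferase GTT1 had 32, and GRX5, a mitochondrial glutaredoxin of iron-sulfur cluster assembly, 31. In some genes nearly all lay on 1 side. All 25 of GTT2 and 24 of the 26 of OYE2 were above the parents, as were 23 of the 30 of GLR1, whereas SKN7 had 0 on either side.

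Most of the genes varied without a gap. The separation of the best split into 2 ranges of at least 6 segregants each, counted as the distance of the range means in units of the SD within ranges, was above 4 in GRX2 only, against 3.37% of all probes. In GRX2, a glutaredoxin of cytosol and mitochondria, 6 segregants lay between 9.08 and 10.17 and 38 between 10.32 and 11.65, and both parents, at 11.02 and 10.98 for 59A and 10.74 and 10.61 for S288C, were in the upper range. The step from 10.17 to 10.32 was narrow, and the 6 low segregants were 20a, 19c, 14a, 22b, 28b and 21c. DOT5 (3.49), GRX5 (3.19), SRX1 (3.11) and GRX4 (3.03) came next, also with no wide gap between ranges.

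19c and 20a were low in the defence genes rather than high. Each lay below the range of the other 42 segregants in 15 of the 34 genes and above it in 0, and 13 genes were shared, while 7.34% of all probes were below the range in both and 5.83% above it in both. The shared genes were CTA1, CTT1, SOD1, SOD2, TRX2, TRX3, TRR2, TSA2, AHP1, PRX1, SRX1, GPX1 and GRX2. TSA2 was at 8.04 in 19c and 8.84 in 20a, SOD2 at 9.86 and 9.01, CTT1 at 8.84 and 8.31, TRX2 at 11.61 and 12.69 and AHP1 at 12.52 and 14.37. The median deviation from the segregant median was -0.70 in 19c and -0.84 in 20a over the 34 genes, and 0.02 and 0.0029 over all probes. GRX3 was high in both, at 11.60 and 11.62, but 28b was higher at 11.91.

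The next lowest segregants were 28b and 14a. Their median deviation over the 34 genes was -0.56 and -0.24, and outside these and 19c and 20a the median deviation lay between -0.15 and 0.28.

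**Figure D3:**
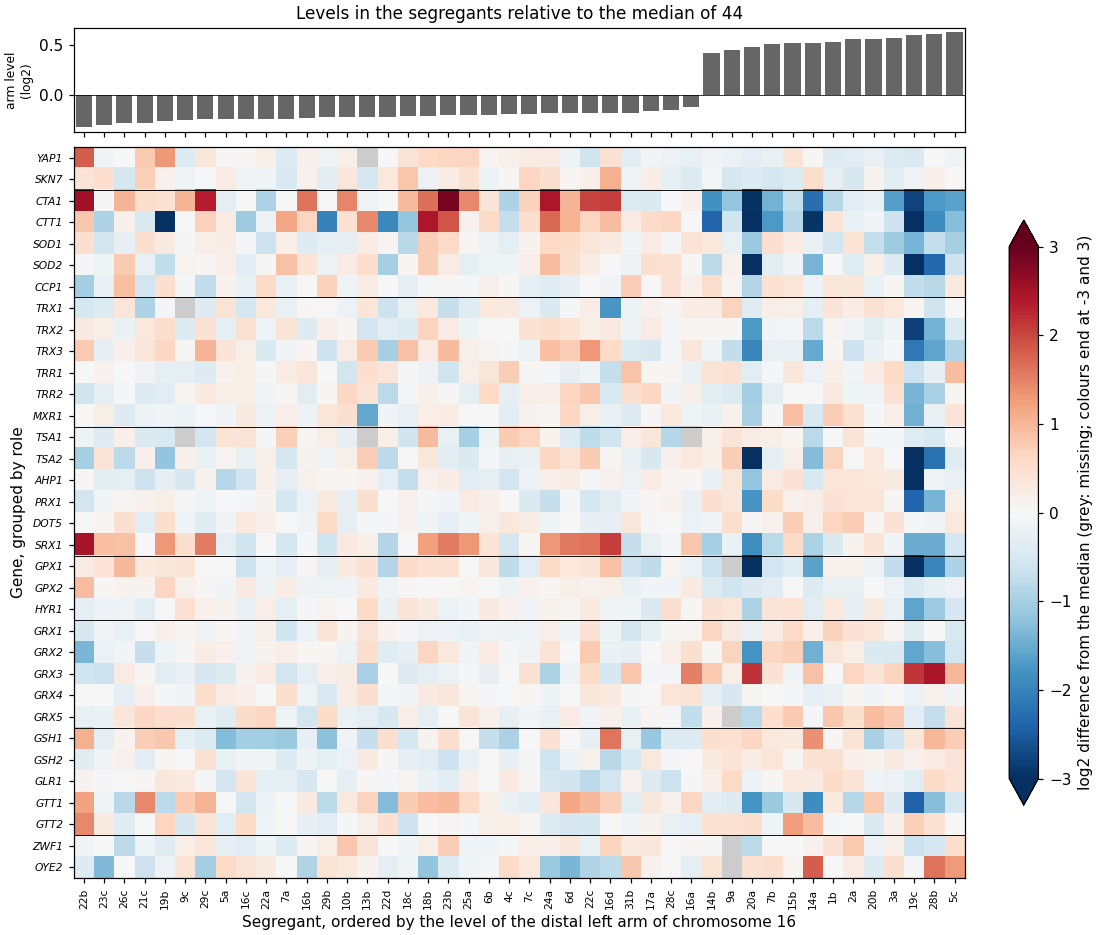
Levels of the 34 genes (rows, by role) in 44 segregants (columns, ordered by arm level), as log2 differences from the median of the segregants, with missing values in grey. The upper panel gives the level of the distal left arm of chromosome 16, which steps from -0.13 to 0.42. The darkest blue columns are 19c and 20a, on the right, and the CTA1 row turns from mixed to blue at the step.

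The segregants 19c, 20a, 28b and 14a had in common a high level of genes on the distal left arm of chromosome 16. 59A carries a translocation between chromosomes 8 and 16 at SSU1, and spores of such a cross can hold this arm in an extra copy. The labels do not say which segregants do, so the level of the arm was used as a number: the mean, in each segregant, of 129 genes from the left telomere to SSU1, each centred on its own mean. None of the 34 genes is among them, although GLR1 is the neighbour of SSU1. The arm level ran from -0.33 to 0.63 with no segregant between -0.13 and 0.42. 31 segregants lay below this gap and 13 above it, 0 of 7 above on slide 4 and 1 to 3 on each other slide. 19c was at 0.60, 20a at 0.48, 14a at 0.52 and 28b at 0.61. The paper also counts 13 segregants with the extra copy, and names 7a as 1 of them from its DNA hybridization. Here 7a was at -0.25, below the gap, and 7b at 0.51. The reason for this mismatch was not tested. In its segregants with the extra copy, the paper reports faster fermentation and an enrichment of oxidative stress response genes among those with lower expression.

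The next comparison asked which defence genes changed with the arm level. 13 of the 34 had a slope that passed limma's test at an adjusted p under 0.01, 10 negative and 3 positive, where 25.7% of all probes passed, 12.6% with a negative and 13.1% with a positive slope. With the genes of the arm left out of the table the share was 24.0%. The median slope was -0.21 over the 34 genes and -0.0069 over all probes. Without 19c and 20a, 10 passed, 6 negative and 4 positive, against 8.98% and 10.4% of all probes, and the median slope was -0.02 (all probes -0.016). Thus the excess of negative slopes rested in part on these 2 segregants.

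Genes for catalases and superoxide dismutases were lower where the arm was high. The 5 lowest segregants for CTA1 were 20a (6.44), 19c (6.63), 14a (7.14), 14b (7.59) and 28b (7.68), all above the gap, and its 5 highest, from 11.47 in 16d to 12.26 in 23b, were all below it. The slope, in log2 units of the gene per log2 unit of arm level, was -2.93 (SE 0.42, adjusted p = 6.5e-07) and -2.61 without 19c and 20a. CTT1 was lowest in 20a (8.31), 19c (8.84), 19b (9.14), 14a (9.37) and 14b (9.92), of which 19b had a low arm level of -0.27. Its slope was -2.07 (SE 0.53, adjusted p = 0.0020), and -1.54 with an adjusted p of 0.022 without 19c and 20a. SOD2 had a slope of -1.44 (SE 0.33, adjusted p = 0.00064) that held at -0.87 without them, while SOD1 (-0.67, adjusted p = 0.0068) did not pass without them (-0.47) or with slide as a block (-0.69, adjusted p = 0.0101).

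Of the 3 glutathione peroxidase genes 2 passed with a negative slope, and of the 6 genes of the thioredoxin system TRX3 and TRX2. GPX1 was lowest in 19c (5.68), 20a (5.77), 28b (7.09), 14a (7.47) and 5c (8.16), all above the gap, with a slope of -1.59 (SE 0.32, adjusted p = 0.00013) and -1.03 without the first 2. GPX2, a glutathione peroxidase gene that Yap1 activates, changed little in size but evenly, with a slope of -0.49 (SE 0.10, adjusted p = 9.2e-05) and -0.45 without 19c and 20a. TRX3 was lowest in 19c (9.44), 20a (9.63), 28b (10.00), 14a (10.07) and 22d (10.59), and its slope was -1.36 (SE 0.26, adjusted p = 5.8e-05) and -1.06 without 19c and 20a. GTT1, a membrane-associated glutathione transferase, had a slope of -1.37 (SE 0.32, adjusted p = 0.00067) and passed without them too (-1.05). The slopes of TRX2 (-0.92, adjusted p = 0.0012) and SRX1 (-1.45, adjusted p = 0.0015), no longer passed without 19c and 20a, at -0.52 and -1.21.

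GRX3, OYE2 and GSH2 rose with the arm level. GRX3 was highest in 28b (11.91), 20a (11.62), 19c (11.60), 16a (10.97) and 5c (10.46), of which 16a lay below the gap, and its slope was 1.37 (SE 0.25, adjusted p = 3.7e-05). GSH2 was between 8.35 and 8.78 in the 13 segregants above the gap and between 7.49 and 8.77 in the others (slope 0.53, SE 0.11, adjusted p = 0.00013). OYE2 had a slope of 0.99 (SE 0.27, adjusted p = 0.0032), which did not pass with slide as a block (0.89, adjusted p = 0.019). Without 19c and 20a these 3 passed with 1.09 for GRX3, 0.55 for GSH2 and 1.09 for OYE2, and GLR1 passed with 0.50 (adjusted p = 0.0059).

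Within the 6 slides that held segregants on both sides of the gap, 9 of the 13 genes had the same sign of slope in 6 of 6. For SOD1, TRX2, SRX1 and OYE2 it was 5. The 13 genes were called from these same arrays, so their signs within slides are only a description. No share over all probes was computed. Slides 6 and 7 each held only 1 segregant above the gap. For CTA1 the slopes within slides ran from -3.46 to -0.87 and for GSH2 from 0.30 to 0.74. Some paralogs passed together and others did not. CTA1 and CTT1 both passed with negative slopes, as did GPX1 and GPX2. The slope of GRX4 was -0.24 beside 1.37 for GRX3, that of TRX1 0.35 beside -0.92 for TRX2, and those of TSA1 and TSA2 were 0.03 and -0.89, with neither TSA gene nor TRX1 nor GRX4 called. The difference between paralogs was not tested.

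**Figure D4:**
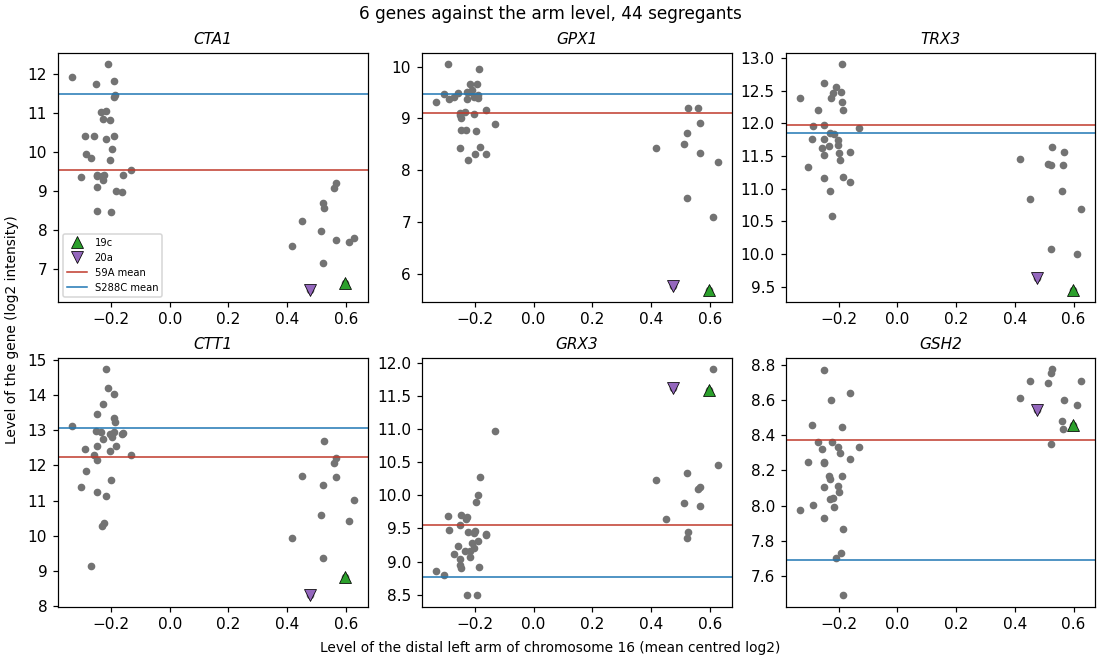
Levels of 6 genes (log2 intensity, vertical axes) against the level of the distal left arm of chromosome 16 (mean centred log2, horizontal axes) in 44 segregants, with parental means as lines. CTA1, GPX1, TRX3 and CTT1 have their lowest points to the right of the gap, in 20a or 19c, while GRX3 and GSH2 lie higher there.

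The last fit asked which defence genes followed the level of YAP1, whether or not they are its targets. YAP1 itself ran from 9.60 over 10.20 to 12.005 in the 43 segregants with a value. 3 of the other 33 genes had a slope on YAP1 that passed, all positive, against 6.12% of all probes, of which 3.68% had a positive slope. GPX2 rose by 0.37 per log2 unit of YAP1 (SE 0.07, adjusted p = 0.00056), SRX1 by 1.17 (SE 0.28, adjusted p = 0.0040) and CTA1 by 1.56 (SE 0.41, adjusted p = 0.0085). The slope of TRX2, a textbook Yap1 target, was 0.45 and did not pass (adjusted p = 0.088), nor did that of TRR1 (-0.16, adjusted p = 0.35). A transcript level need not follow the activity of Yap1, which is set by oxidation, and that was not measured.

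These calls were lost without segregant 22b, although the slopes stayed positive. 22b had the highest YAP1 level, 12.005 against 11.510 in the next segregant, and was also highest of 44 in SRX1 (10.69, next 10.29), GPX2 (8.07, next 7.78) and GTT2 (11.74, next 11.54). It was the lowest in CCP1, at 10.59. 22b was the highest segregant in 4.40% of all probes, and it was singled out after its values were seen. Without it 0 of the 33 genes passed, against 1.83% of all probes, with adjusted p-values of 0.030 for GPX2, 0.037 for SRX1 and 0.034 for CTA1 and slopes of 0.28, 1.08 and 1.64. Without 19c and 20a, GPX2 and SRX1 passed, against 4.98% of all probes, and CTA1 did not (adjusted p = 0.021), nor did it with slide as a block (adjusted p = 0.0107). 22b also had the lowest arm level of all segregants (-0.33). With the arm level in the same fit the members that passed on YAP1 were others, GSH1 (0.90, adjusted p = 0.0045) and GTT2 (0.61, adjusted p = 0.0026). Of all 6226 probes 165 passed there. That fit was not run without 22b. On YAP1 alone, leaving out 22b took the slope of GTT2 from 0.39 to 0.20 and that of GSH1 from 0.55 to 0.50.

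**Figure D5:**
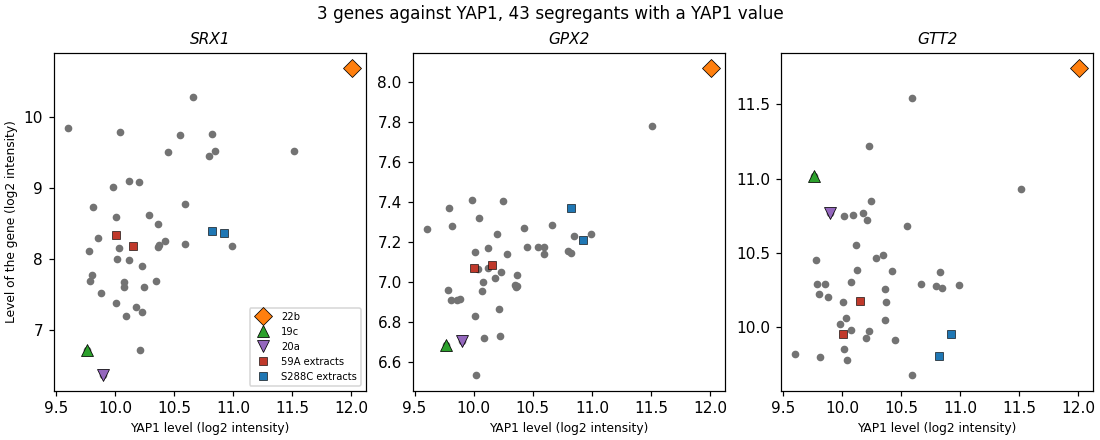
Levels of SRX1, GPX2 and GTT2 (log2 intensity, vertical axes) against YAP1 (log2 intensity, horizontal axes) in 43 segregants, with the extracts of the parents as squares. 22b, the diamond, is the highest point on both axes of all 3 panels.

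16 pairs of genes with a known link were correlated over segregants, with 100000 permutations and Benjamini-Hochberg adjustment over the 16. 8 pairs had an adjusted p under 0.05, and 4 without 19c and 20a. The share of other gene pairs that would pass was not computed, so these counts are no result about the links. The strongest was that of CTT1 with SOD2, at r = 0.82 and rho = 0.83 (n = 44, permutation p = 1e-05 for both, the smallest possible), at 0.77 without the 2 farthest segregants, which were 19c and 20a. It was positive within 7 of 7 slides, from 0.58 to 0.98, and stood at 0.77 in the 31 segregants below the gap in arm level and at 0.87 in the 13 above it. The catalase genes CTA1 and CTT1 gave r = 0.73 and rho = 0.69 (n = 44, permutation p = 1e-05 for both). The r was 0.66 without the 2 farthest, 20a and 23b, and 0.64 without 19c and 20a. It was 0.48 to 0.94 within slides, but 0.47 below and 0.91 above the gap. Both pairs were positive on either side of the gap, and all 3 genes had a slope on the arm level. Whether the arm level accounts for these correlations was not tested. The 13 segregants above the gap include 19c and 20a.

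The other pairs were weaker. SOD1 with SOD2 gave r = 0.55 and rho = 0.33 (permutation p adjusted over the 16 pairs 0.00085 and 0.0497), falling to 0.31 without the 2 farthest, again 19c and 20a, and TSA2 with SRX1 gave 0.45 and 0.38 (0.0075 and 0.026), falling to 0.23 without the same 2. TRR1 with TSA1 gave 0.39 and 0.42 (0.028 and 0.018), 0.41 without the 2 farthest, and was positive within 7 of 7 slides. Without 19c and 20a its r was 0.40 (adjusted p = 0.048). GTT1 with GTT2 was negative, at -0.39 and -0.43 (0.023 and 0.018), and -0.27 without the 2 farthest, 19c and 14a. It did not pass without 19c and 20a (-0.32, adjusted p = 0.0999). GLR1 with its neighbour SSU1 was negative over all segregants, at -0.36 and -0.42 (0.034 and 0.018), and -0.35 without the 2 farthest. Without 19c and 20a it gave -0.48 (adjusted p = 0.0067). It was negative within 6 of 7 slides, but 0.73 in the 13 segregants above the gap and -0.37 in the 31 below it. YAP1 with TRX2 gave 0.34 and 0.37 (0.058 and 0.032), 0.28 without 19c and 20a, and 0.49 around slide means, where it passed (adjusted p = 0.0054). GRX1 with GRX2 also passed, though not without 19c and 20a (adjusted p = 0.084), and as GRX2 fell into 2 ranges no pooled r is given.

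The genes around the defence system were taken as 4 further lists. Of 30 other redox and glutathione genes 8 were higher and 5 lower in 59A, among them SFA1, the glutathione-dependent formaldehyde dehydrogenase, at 11.90 and 11.85 against 9.09 and 9.00 (difference 2.83), DUG1 of glutathione breakdown (2.46), the flavohemoglobin gene YHB1 (2.30) and CCS1, the copper chaperone of Sod1 (-1.24). Of 17 pentose phosphate and NADPH genes 7 were higher, led by ALD6 (3.09) and GND1 (1.79), and 3 lower, among them NQM1 (-1.44). Of 12 genes for relatives of Yap1 and other regulators, YAP6 was higher (1.67) and the general stress regulators MSN4 (-1.22) and MSN2 (-1.01) lower. Of 3 further Yap1 targets 0 were called between the parents. The background for these counts is the 25.3% of all probes given above.

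Some genes of each list had a slope on the arm level, as 25.7% of all probes did, and 19.4% without 19c and 20a. Of the 12 genes for relatives of Yap1 and other regulators 4 passed. The general stress regulators MSN4 (-1.85) and MSN2 (-0.42) and the Yap1 relative CIN5 (-0.90) were negative. CAD1, also known as YAP2, was positive at 0.92. Without 19c and 20a 3 passed, MSN4 at -1.40, MSN2 at -0.49 and CAD1 at 0.91, while CIN5 did not (-0.67, adjusted p = 0.013). Msn2 and Msn4 are the activators of CTT1 and SOD2 in the general stress response. Of the 17 pentose phosphate and NADPH genes 3 had positive slopes, POS5 (0.87), TKL1 (1.45) and GND1 (1.00), and 4 negative ones, among them the paralogs GND2 (-2.27) and TKL2 (-1.93), and the counts were the same without 19c and 20a. Of the 30 other redox genes 7 were positive, with GRX8 at 0.72, and 3 negative, with the cytochrome b5 reductase gene MCR1 at -1.61 and the glyoxalase gene GLO4 at -0.92, against 8 and 2 without 19c and 20a, where MCR1 was at -1.09 and GLO4 at -0.70. FLR1, a drug exporter gene under Yap1, had a slope of -0.51, and -0.58 without them. OYE3 was the 1 further target that passed on YAP1, with a slope of 1.34, and it did not pass without 22b (1.27, adjusted p = 0.046), in which it was highest at 13.91, or without 19c and 20a (1.01, adjusted p = 0.011).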

How the data were processed

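The deposited values are log2 intensities of spot medians that the authors read with GenePix from 56 Agilent arrays with 1 colour (7 slides, 8 arrays each) and quantile normalized over the set in R 2.13.1. Normalization forces a common distribution and hides any change shared by all transcripts. The background limits the precision of dim probes. 2076 values were missing, 9 of them in 7 members, and were not filled in. Technical arrays were averaged per extract. Parents, midpoint and slopes were fitted over all probes with limma 3.58.1 in R 4.3.3 with Benjamini-Hochberg adjustment, keeping probes with values on 2 of 3 arrays of each extract and on 40 segregants. Each fit was tested on simulated data. Correlations and counts used Python 3.11.15, numpy 2.4.6, pandas 2.3.3 and scipy 1.17.1. SE values are those of the moderated fit. Full values are given for called genes (up to 8 by adjusted p for a slope), the 6 widest, the 5 best separated and paralogs, and up to 4 genes of each further list. Names came from GEO's probe annotation, 51 of them updated. The members and lists were chosen with earlier results of these data known. Alternatives left out extracts, segregants or dim probes, blocked on slide or replicate, shifted arrays, or changed the required size. Sequences and positions are not given here.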

Additional observations from a re-analysis of the deposited data

Results flagged for a closer look

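Among the 6 arrays of each parent, in 68 sets of values of the 34 genes, an array lay far from the others in 2. That is no more than the about 1 in 20 that chance gives. For TRX1, array 2 of the first extract of 59A was lowest at 10.31, with the next at 10.53 and the highest at 10.66. For SRX1, array 3 of the second extract of 59A was lowest at 7.77, with the next at 8.28 and the highest at 8.45. Their causes were not tested. Without the first extract of 59A, TRX1 was still called as higher in 59A.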

How the results depend on the processing

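Between the parents, the median difference over the 34 genes lay between 0.14 and 0.21 when 1 extract was left out. Over all probes it then lay between -0.0081 and 0.0009. With no required size 15 of the 34 genes were called, where 2834 of 6245 probes were. With a required size of 1, chosen after the data were seen, 5 were called, 2 higher and 3 lower, where 893 of 6245 probes were. Arrays as separate samples, an extract or slide block, a filter on dim or incomplete probes and shifted arrays gave 12 or 13. Of the probes tested they gave 1503 to 1620. With the replicate number as a block 12 were called, and 1608 of all probes against 1579. The deviations of extracts with the same number correlated at 0.44, but with 2 pairs the numbers were not taken as a pairing. The count against the midpoint stayed at 0 in all alternatives that were tested. Over the slopes on arm level, leaving out 19c and 20a reduced the negative calls from 10 to 6, and adding the YAP1 level raised the positive ones from 3 to 5, with GSH1, GLR1 and GTT2 gained and OYE2 lost, while the negative ones went from 10 to 8 without SOD1 and SRX1. The calls on YAP1 fell from 3 to 0 without 22b, added after the data were seen, and to 0 without the 2 segregants farthest in YAP1, 19b and 22b. Pairs that passed fell from 8 to 4 without 19c and 20a and numbered 9 around slide means, with YAP1 and TRX2 gained. No called gene changed direction under these alternatives. Slopes that were not called did, on arm level for 6 genes, such as AHP1 (-0.10, and 0.37 without 19c and 20a), and on YAP1 for 12, where the median slope went from 0.05 to -0.06 without 19c and 20a. Single arrays of segregants carry culture and array differences that cannot be told apart from genotype, and GPX1 in 19c and 20a and AHP1 near saturation are bounded by the scanner's range.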
